A study of Mus musculus with 18 samples.

Results

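The 10 genes described here encode transcription factors of fibroblasts and of the epicardium, the cell layer that covers the heart. They are Tcf21, Wt1, Tbx18, Meox1, Twist1, Twist2, Snai1, Scx, Prrx1 and Osr1. They were chosen by name, with earlier results of these data known, and are 10 of the 34150 genes listed for each of 18 heart libraries. Each library was made from total RNA of mouse heart tissue after removal of ribosomal RNA, with 6 libraries of HXP-treated mice, 6 of mice with myocardial infarction (MI) and 6 of control mice. The series places HXP in a mouse model of acute MI, but some facts are missing, namely what HXP abbreviates, its dose, the strain, age and sex of the mice, the times of infarction and collection, and whether each HXP mouse had an infarct. The labels used here give none of these. No transgene or other allele is named for any group. The 3 groups differ, by label, in MI and HXP alone. The labels do not say which part of the heart was taken.

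Most cardiac fibroblasts descend from the epicardium of the embryo. Tcf21, Wt1 and Tbx18 are made in that layer, Snai1 and Twist factors act as its cells lose their epithelial character and enter the muscle, and Tcf21 stays on in resident fibroblasts of the adult heart. After injury fibroblasts divide, secrete collagen and in part become contractile myofibroblasts, a state in which Meox1 and Scx have been described as activators in mouse hearts. Tcf21, Twist1, Twist2 and Scx are basic helix-loop-helix (bHLH) proteins that bind the E-box (CANNTG) together with E proteins, Meox1 and Prrx1 are homeodomain proteins, Tbx18 is a T-box protein, and Wt1, Osr1 and Snai1 are zinc-finger proteins. Levels are given in FPKM, reads per kilobase of exon, scaled to library depth, a measure on which different genes can be compared.

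The upstream sequences of 4 members are shown because the genes moved together across libraries and several of their products bind short DNA words. RefSeq (GRCm38.p6) gave an entry for 6 members, namely Twist2, Prrx1, Snai1, Tbx18, Tcf21 and Twist1. None is printed for Meox1, Wt1, Scx and Osr1. The window searched was the 250 bases before the start that RefSeq gives. GENCODE starts Tcf21 31 bases and Prrx1 60 bases further upstream, and those bases are not printed. The sequences are written 5′ to 3′ on the gene's strand. They are chr10:22820175-22820393 (minus strand) for Tcf21, chr12:33957421-33957670 (plus strand) for Twist1, chr2:167537945-167538194 (plus strand) for Snai1 and chr1:163313711-163313900 (minus strand) for Prrx1. Capitals mark any match to 5 short words. The E-box, CANNTG, reads alike on both strands. Its form CAGCTG, which overlaps that search, was also counted apart. Its form CAGGTG was searched together with the reverse, which is CACCTG. The box bound by the general transcription machinery was searched as TATAAA and as its reverse, which is TTTATA. The word bound by TEAD factors was searched as GGAATG and as its reverse, which is CATTCC.
Tcf21: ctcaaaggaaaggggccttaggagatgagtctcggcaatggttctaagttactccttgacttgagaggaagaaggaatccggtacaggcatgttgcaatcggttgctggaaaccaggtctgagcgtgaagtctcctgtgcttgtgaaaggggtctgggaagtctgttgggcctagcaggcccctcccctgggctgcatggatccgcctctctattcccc
Twist1: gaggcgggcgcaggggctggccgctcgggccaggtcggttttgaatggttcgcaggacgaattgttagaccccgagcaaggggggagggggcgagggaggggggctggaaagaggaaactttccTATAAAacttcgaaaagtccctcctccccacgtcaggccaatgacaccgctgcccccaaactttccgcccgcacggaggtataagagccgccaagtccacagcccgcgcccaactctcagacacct
Snai1: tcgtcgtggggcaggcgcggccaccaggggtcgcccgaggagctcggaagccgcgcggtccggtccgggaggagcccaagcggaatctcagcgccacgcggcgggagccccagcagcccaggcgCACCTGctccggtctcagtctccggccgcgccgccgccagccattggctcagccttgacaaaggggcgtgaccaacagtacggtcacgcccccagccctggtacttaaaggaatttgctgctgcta
Prrx1: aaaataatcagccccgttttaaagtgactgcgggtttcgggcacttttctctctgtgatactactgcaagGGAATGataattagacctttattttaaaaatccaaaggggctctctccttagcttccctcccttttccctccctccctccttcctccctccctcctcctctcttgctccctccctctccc

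The Snai1 window holds an E-box of the form CACCTG, a form that overlaps the general E-box search. The Twist1 window holds TATAAA and the Prrx1 window holds GGAATG. No searched word is in the Tcf21 window. Over the 6 members with an entry, an E-box is in 2 (Snai1 and Tbx18), where 66.2% of 32851 mouse promoter windows of this length hold one. The shares for the other words over all windows are 17.2% for CAGGTG or CACCTG, 13% for CAGCTG, 12.4% for TATAAA and 12.6% for GGAATG. The Snai1 window has 70.0% G and C and the Prrx1 window 47.6%, against a median of 52.4% over all windows.

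In control hearts Prrx1 had the highest mean of the 10 genes, with 5.06 ± 0.977 FPKM (SD, n = 6 for this and each later mean). Meox1 followed at 4.17 ± 1.14 FPKM, and Prrx1 exceeded it in 6 of 6 control libraries. Tcf21 came next with 2.77 ± 0.425 FPKM. Snai1, Osr1, Tbx18 and Scx lay close together, with means of 0.967, 0.951, 0.842 and 0.750 FPKM, and each exceeded the next in only 3 or 4 of the 6 control libraries. Twist1 (0.480 FPKM), Wt1 (0.293 FPKM) and Twist2 (0.0917 FPKM) were the lowest. Wt1 and Twist1 therefore passed the filter on low genes (mean over the 18 libraries of 0.5 FPKM or more) through their levels in the HXP and MI libraries. Twist2 did not pass it, so 9 of 10 members were tested in the main fit. Twist2 was tested in a fit with a filter of 0.1 FPKM. It rested on 4 to 170 recovered reads per library, where Meox1 rested on 262 to 7741.

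**Figure D1:**
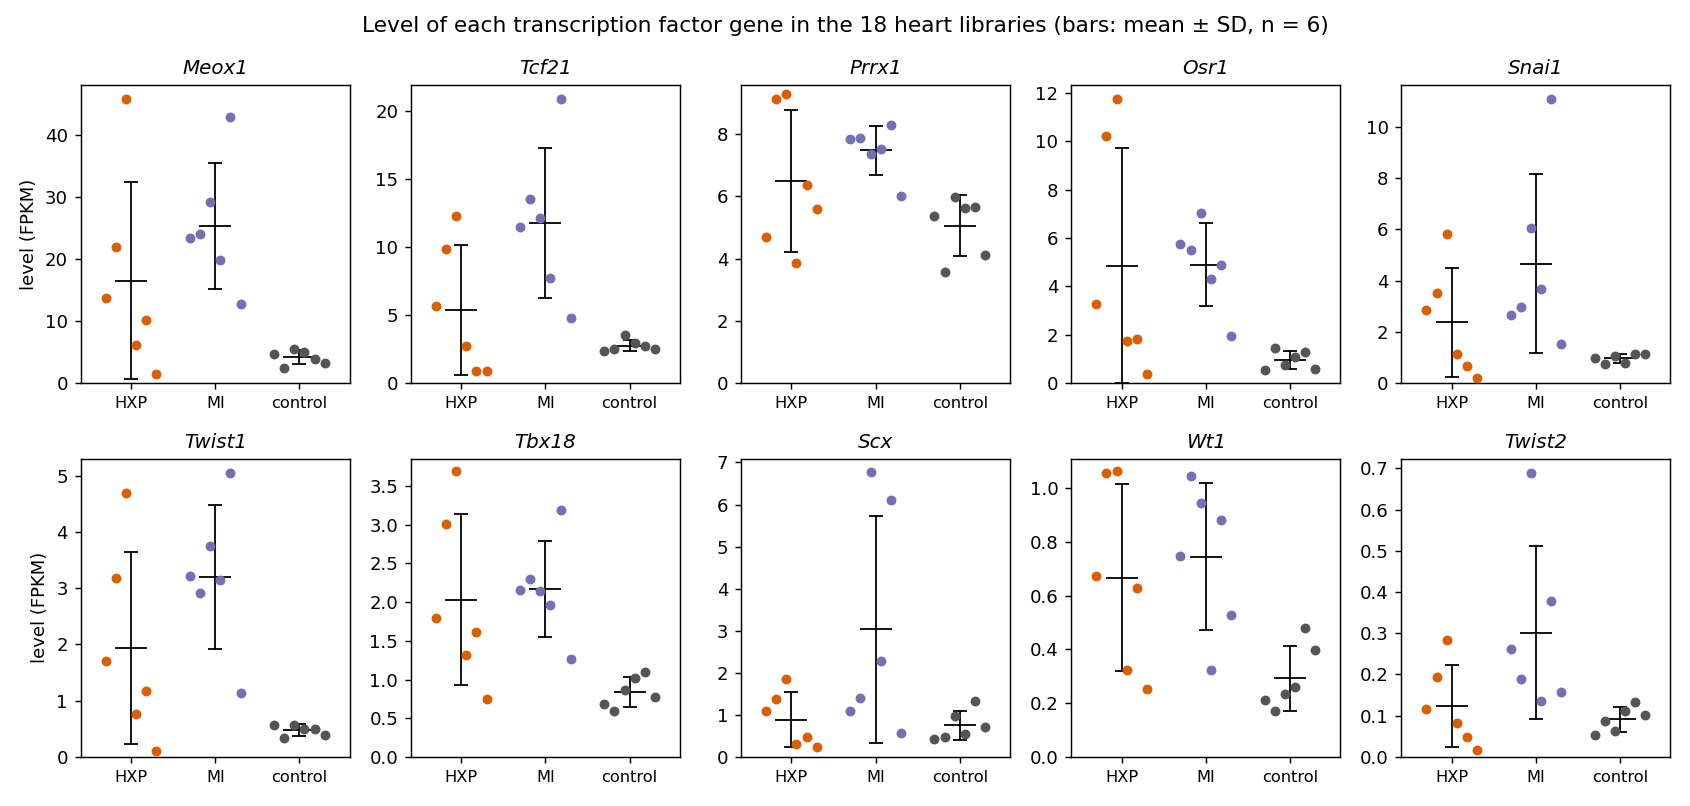
FPKM of each of the 10 genes (y axis, from 0, own scale per panel) in HXP, MI and control libraries (x axis), with 1 point per library and bars for the mean ± SD of 6 libraries. The MI points of all genes but Wt1 and Scx lie above all control points, and the HXP points spread across both ranges.

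The libraries were of even depth, with 77.6 to 82.7 M reads recovered from the steps of the FPKM values. Some libraries stood apart from their group. MI 5 held lung epithelial markers (mean of 8 markers 4.98 on the log2 scale, at most 0.28 in HXP, 0.23 in the other MI libraries and 0.07 in control). Lung mesenchymal markers were at 1.73 in MI 5 and at most 1.07 in the other MI libraries. MI 4 held skeletal muscle markers (mean of 10 markers 3.19, at most 1.38 in HXP, 0.95 in the other MI libraries and 0.44 in control). Over the groups, limma called 1 of 7 tested lung epithelial and 2 of 7 tested skeletal muscle markers higher in MI than in control. Adipocyte markers ranged from 0.01 to 4.81 in HXP, from 0.14 to 3.79 in MI and from 0.02 to 0.29 in control. HXP 5 and HXP 6 differed from the others in base composition. Among the 13692 tested genes with a known transcript sequence, the 10% richest in G and C had a median difference from the control mean of -0.71 in HXP 6 and -0.40 in HXP 5 on the log2 scale. The poorest 10% stood at 0.02 in HXP 6 and 0.10 in HXP 5. In the other 4 HXP libraries the richest 10% lay between -0.07 and 0.37. MI 1 and MI 2 were the most alike pair of any group (chi-square per gene 24.8, next pair 54.0), but differed by far more than sampling noise, at which that value is near 1. The mean of 8 cardiomyocyte markers was 9.10 or more on the log2 scale in every library.

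The comparison of MI with control asked which genes differ in the infarcted heart. All 9 tested members were higher in MI, where 40.1% of the 13710 tested genes were called higher (limma, adjusted p below 0.05). Wt1 and Twist1 passed the filter only through their levels in HXP and MI, so their calls are descriptions. The median log2 fold change of the 9 members was 1.34, and that of all tested genes was 0.27. With the filter at 0.1 FPKM all 10 members were called higher, where 32.5% of 18482 genes were. Twist2 passed that filter only through its levels in HXP and MI, so its call there is a description. With no filter, 6 of 10 members were called and 3908 of 34150 genes were higher. The calls of Twist2 (limma adjusted p = 0.0579), Wt1 (limma adjusted p = 0.0508), Prrx1 (limma adjusted p = 0.0603) and Scx (limma adjusted p = 0.0754) were lost there. The groups did not overlap for 8 of the 10 members, all but Wt1 and Scx. Of all genes in the main fit, 27.9% were higher without overlap. The fold changes come from log2(FPKM + 1), which compresses those of genes near or under 1 FPKM, so the ratio of mean FPKM is given beside some of them. In bulk tissue, more cells of a type and more RNA of a gene per cell cannot be told apart.

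Among factors described in activated fibroblasts, Meox1 (ENSMUSG00000001493, GRCm38 chromosome 11, 101877510 to 101894374, minus strand) showed the largest change of the 10 genes on the log2 scale. It ranged from 12.8 to 42.9 FPKM in the MI libraries (median 23.7) and from 2.51 to 5.56 FPKM in the control libraries (median 4.32). Every MI library was above every control library. The mean was 25.4 ± 10.2 FPKM in MI and 4.17 ± 1.14 FPKM in control, a 6.09-fold ratio (log2 fold change 2.30, SE 0.49, limma adjusted p = 0.0139). Scx (ENSMUSG00000034161, chromosome 15, 76457452 to 76459458, plus strand), a bHLH factor of tendon, stood between 0.573 and 6.76 FPKM in MI (median 1.84) and between 0.435 and 1.34 FPKM in control (median 0.634). MI 3 (6.76 FPKM) and MI 5 (6.10 FPKM) were far above the other 4 MI libraries, which reached at most 2.28 FPKM. Of the 6 MI libraries, 4 were above all controls. The fitted change was 0.96 on the log2 scale (SE 0.34, limma adjusted p = 0.0350).

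The factors known from resident or embryonic fibroblasts rose by different amounts. Tcf21 (ENSMUSG00000045680, chromosome 10, 22817281 to 22820174, minus strand), needed for cardiac fibroblasts to form in mouse embryos, had 4.77 to 20.9 FPKM in MI (median 11.8) and 2.37 to 3.53 FPKM in control (median 2.62). The 2 groups did not overlap (log2 fold change 1.65, SE 0.43, limma adjusted p = 0.0149). Osr1 (ENSMUSG00000048387, chromosome 12, 9570116 to 9581500, plus strand), a factor of embryonic heart and kidney mesenchyme, had 1.96 to 7.04 FPKM in MI (median 5.20) and 0.536 to 1.46 FPKM in control (median 0.923). Its groups did not overlap either (ratio of means 5.16, log2 fold change 1.56, SE 0.43, limma adjusted p = 0.0158). Prrx1 (ENSMUSG00000026586, chromosome 1, 163245119 to 163313710, minus strand), a homeodomain factor of mesenchyme in many organs, had 6.01 to 8.28 FPKM in MI (median 7.68) and 3.56 to 5.98 FPKM in control (median 5.51). MI 6, the lowest MI library, was just above the highest control. Its ratio of means of 1.48 was the lowest of the 10 members (log2 fold change 0.50, SE 0.17, limma adjusted p = 0.0286).

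Snai1, Twist1 and Twist2 are regulators of the transition from epithelial to mesenchymal cells. Twist1 (ENSMUSG00000035799, chromosome 12, 33957671 to 33959829, plus strand) had 1.13 to 5.06 FPKM in MI (median 3.18) and 0.339 to 0.576 FPKM in control (median 0.502). With no overlap between the groups, its ratio of means of 6.67 was the highest of the members (log2 fold change 1.44, SE 0.31, limma adjusted p = 0.0139). Snai1 (ENSMUSG00000042821, chromosome 2, 167538195 to 167542814, plus strand), a repressor of E-cadherin, had 1.53 to 11.1 FPKM in MI (median 3.32) and 0.737 to 1.14 FPKM in control (median 1.01). The highest value was that of MI 5, and no MI library reached down into the control range (log2 fold change 1.34, SE 0.39, limma adjusted p = 0.0176). Twist2 (ENSMUSG00000007805, chromosome 1, 91801461 to 91848028, plus strand), the close paralog of Twist1, stayed under 1 FPKM with 0.137 to 0.690 FPKM in MI (median 0.225) and 0.0533 to 0.133 FPKM in control (median 0.0947). The groups did not overlap, by a narrow margin (ratio of means 3.29, log2 fold change 0.24, SE 0.08, limma adjusted p = 0.0343 with the filter at 0.1 FPKM and 0.0579 with none).

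The epicardial factors Wt1 and Tbx18 had lower log2 fold changes than Meox1 and Tcf21. Tbx18 (ENSMUSG00000032419, chromosome 9, 87702800 to 87731260, minus strand), also known from vascular mural cells, had 1.26 to 3.19 FPKM in MI (median 2.15) and 0.593 to 1.10 FPKM in control (median 0.824). Its groups did not overlap (ratio of means 2.58, log2 fold change 0.77, SE 0.20, limma adjusted p = 0.0146). Wt1 (ENSMUSG00000016458, chromosome 2, 105126529 to 105173616, plus strand) had 0.325 to 1.05 FPKM in MI (median 0.816) and 0.172 to 0.481 FPKM in control (median 0.248). MI 4, at 0.325 FPKM, lay within the control range and the other 5 MI libraries above it (ratio of means 2.55, log2 fold change 0.42, SE 0.13, limma adjusted p = 0.0233). Of 14 other epicardial and mesothelial markers, 11 were tested and 11 were called higher, where 40.1% of all tested genes were. The median log2 fold change of the 11 markers was 1.5. Among them were Msln, which encodes mesothelin (2.61, SE 0.58, limma adjusted p = 0.0139), and Aldh1a2, which encodes an enzyme of retinoic acid synthesis (1.33, SE 0.29, limma adjusted p = 0.0139). On this list only Aldh1a2 and Gpm6a had a control mean of 0.5 FPKM or more. The other tested markers, Msln (control mean 0.334 FPKM) included, passed the filter only through HXP and MI, so their calls are descriptions.

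**Figure D2:**
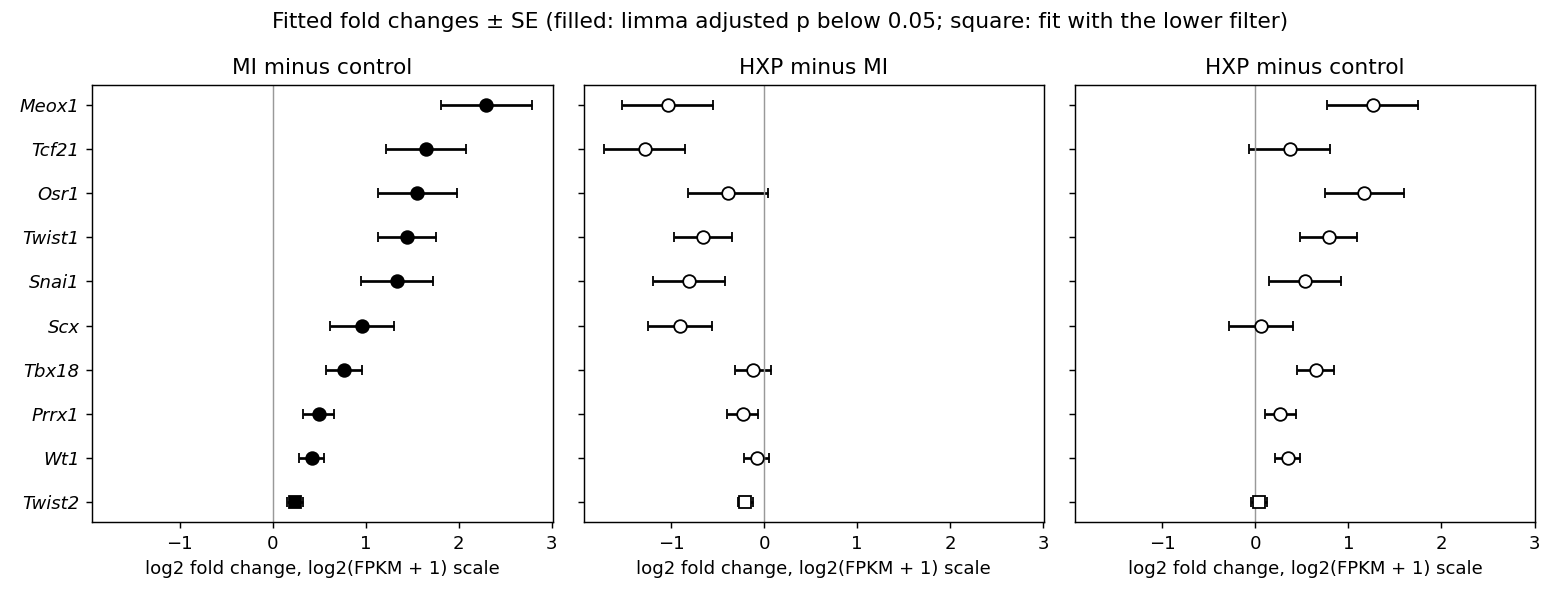
Fitted log2 fold change (x axis, log2(FPKM + 1) scale) of each member (y axis) in the 3 comparisons (left MI over control, middle HXP over MI, right HXP over control), with bars for the SE, filled symbols for a limma adjusted p below 0.05 and squares for Twist2 in the fit with the lower filter. All symbols of the left panel are filled and lie right of 0. Those of the middle panel lie left of 0 and those of the right panel right of 0, unfilled in both.

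The calls in MI depended on the libraries that stood apart more than the fold changes did. Without MI 5, 6 of 9 members were called (2656 of 13710 genes). Those lost were Scx (log2 fold change 0.75, limma adjusted p = 0.0908), Prrx1 (0.47, limma adjusted p = 0.0639) and Wt1 (0.40, limma adjusted p = 0.0553). The calls of these 3 genes also went when other single libraries were left out. For Prrx1 these were control 2, control 6, MI 1 or MI 2 (log2 fold change 0.42 to 0.55 over all 12 removals, limma adjusted p up to 0.0681). For Scx they were control 1, 2, 4 or 6 or MI 3 (0.72 to 1.18 over all 12 removals, limma adjusted p up to 0.0908), and for Wt1 it was MI 2 (0.37, limma adjusted p = 0.0527). The other 6 members kept their call in each removal. Without MI 4 and MI 5 no member and no other gene was called by limma, with members' adjusted p between 0.0555 and 0.141 and a median log2 fold change of 1.03. Meox1 then stood at 2.15, Tcf21 at 1.53 and Snai1 at 1.03 on the log2 scale. The library numbers in the file headers fall into 3 blocks separated by gaps of 50 or more, and the labels do not say what they stand for. The block of 10 libraries holds 2 HXP, 5 MI and 3 control, the block of 5 holds 4 HXP, no MI and 1 control, and the block of 3 holds no HXP, 1 MI and 2 control. Within the block of 10, 1 of 9 members was called, Meox1 (2.0, limma adjusted p = 0.0417), where 79 of 13710 genes were. All 9 fold changes stayed positive there. With the block as a covariate 8 of 9 members were called (4223 of 13710 genes).

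The scale of the tissue also moved the call of the genes with small changes. Median-ratio scaling, which brings the median of all genes to 0.01, gave the members a median log2 fold change of 1.10 with 7 of 9 called. All tested genes then split into 2438 called higher and 1943 lower, against 5494 and 440 in the main fit. Quantile normalization called 6 members (1810 genes higher and 2371 lower), and so did removal of the trend with GC content. Prrx1 and Scx lost their call under each of these 3 settings and Wt1 under quantile normalization and GC removal. The other 6 kept theirs. All 9 fold changes stayed positive, with Prrx1 at 0.15 to 0.27 over the 3 settings. Wt1, at 0.42 in the main fit, stood at 0.31 with median-ratio scaling, 0.10 with quantile normalization and 0.11 with GC removal.

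Of 8 fibroblast marker genes 7 were called higher in MI, all but Gsn, with a median log2 fold change of 1.69, so each member was set against them. The reference was the mean log2 level of Pdgfra, Ddr2, Dcn, Dpt, Gsn, Pcolce, Mmp2 and Lum, which stood between 5.16 and 6.73 in MI and between 4.19 and 4.61 in control. It holds none of the 10 members. Relative to it, Meox1 was higher in MI (log2 difference 0.62, SE 0.25, limma adjusted p = 0.0194), where 0.744% of 13710 genes were. Prrx1 (-1.18, SE 0.34, limma adjusted p = 0.00222), Tbx18 (-0.91, SE 0.28, limma adjusted p = 0.00416), Wt1 (-1.25, SE 0.35, limma adjusted p = 0.00183) and Scx (-0.71, SE 0.34, limma adjusted p = 0.0478) were lower relative to it. That is the direction of 94.2% of all genes. The Meox1 call went without control 2 (0.56, limma adjusted p = 0.0504). It also went when Ddr2 (0.53, limma adjusted p = 0.0561) or Gsn (0.50, limma adjusted p = 0.0589) was left out of the 8 reference genes. The Scx call went without Dpt, Lum, Mmp2 or Pcolce in that reference (-0.70 to -0.55, limma adjusted p up to 0.11). It also went in 8 of 12 removals of 1 library, namely control 2, 3, 5 or 6 and MI 1, 2, 4 or 6 (-0.92 to -0.57 over all 12, limma adjusted p up to 0.123). Tcf21, Osr1, Snai1 and Twist1 passed in neither direction, with differences between -0.34 and -0.02.

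The pseudocount matters here for genes under 1 FPKM. With 0.1 in place of 1, Meox1 (0.78, limma adjusted p = 0.00655) and Twist1 (0.66, limma adjusted p = 0.0117) were higher relative to the fibroblast genes, where 1.89% of genes were. Twist1 stood at -0.23 with the pseudocount of 1. Prrx1 (-1.18) and Tbx18 (-0.50) were lower with both pseudocounts, where 87.9% of genes were with 0.1. Wt1 (-0.67, limma adjusted p = 0.0671) and Scx (-0.27) were not called with 0.1. As a plain share of the geometric mean of the 8 genes, with no pseudocount, Meox1 took 30.2% to 41.7% in MI and 15.5% to 27.4% in control. Twist1 took 3.38% to 5.06% in MI and 2.0% to 2.96% in control. Prrx1 took 8.04% to 18% in MI and 21.5% to 31.3% in control. For these 3 genes the MI and control ranges did not touch, with Meox1 and Twist1 above and Prrx1 below. How many of all genes do so on this scale was not counted, so this is a description. Tcf21, at 11.8% to 20.3% in MI and 12.1% to 17.4% in control, had overlapping ranges.

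**Figure D3:**
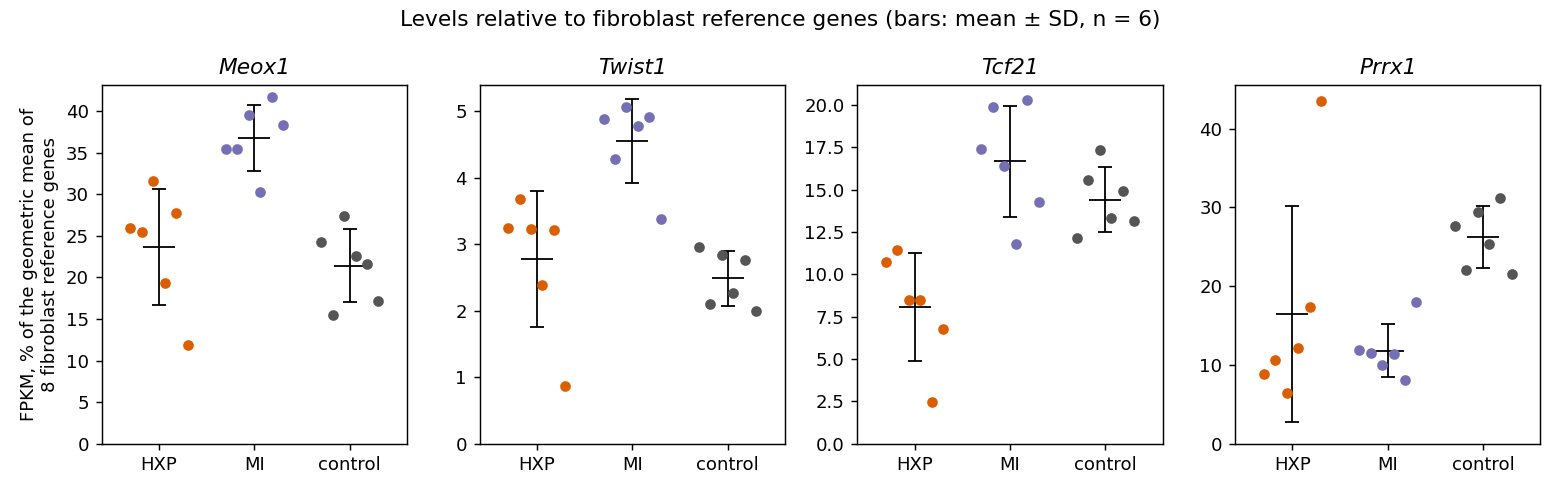
FPKM of Meox1, Twist1, Tcf21 and Prrx1 as a percent of the geometric mean of 8 fibroblast reference genes (y axis, from 0) in HXP, MI and control libraries (x axis), 1 point per library with mean ± SD of 6. MI is above control for Meox1 and Twist1 and below it for Prrx1, Tcf21 is lowest in HXP, and HXP 6 stands alone at 43.5% for Prrx1.

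Meox1 and Tcf21 were then compared within each library, since one is known from activated and the other from resident fibroblasts. The log2 ratio of Meox1 to Tcf21, each as FPKM + 1, was 1.08 ± 0.19 in MI and 0.43 ± 0.27 in control. It lay between 0.79 and 1.26 in MI and between -0.00 and 0.77 in control, so that the groups did not overlap on this scale. As a plain ratio of FPKM they did overlap, since MI 2 (1.78) lay under control 1 (1.995). The other MI libraries were above all controls as a plain ratio too. With FPKM + 1, the difference of 0.65 had an exact two-sided permutation p of 0.00216, the smallest that 924 regroupings allow (0.00649 adjusted over the 3 comparisons). Within the block of 10 libraries it was 0.62 (exact two-sided permutation p = 0.0179, the smallest possible there). The order of the means changed with it. In MI Meox1 was above Tcf21 in 6 of 6 libraries and Tcf21 above Prrx1 in 5 of 6, where Prrx1 had been above Meox1 in 6 of 6 control libraries. Over all MI means the order ran Meox1 (25.4 FPKM), Tcf21 (11.8), Prrx1 (7.48), Osr1 (4.91), Snai1 (4.66), Twist1 (3.20), Scx (3.04), Tbx18 (2.17), Wt1 (0.746) and Twist2 (0.302). The neighbours Twist1 and Scx, and Scx and Tbx18, changed places in 2 or 3 of the 6 MI libraries.

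**Figure D4:**
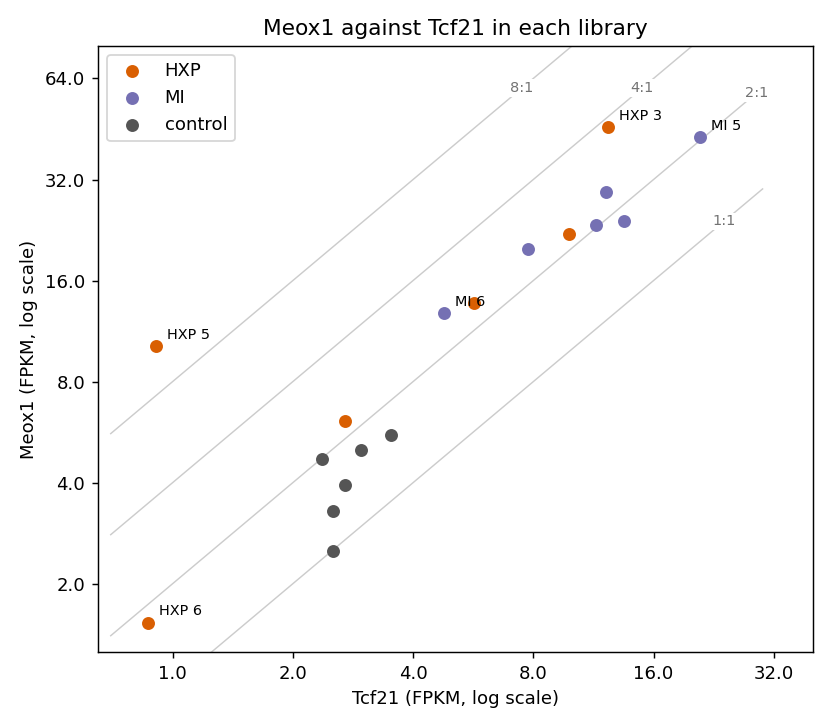
Meox1 against Tcf21 in each library, both in FPKM on log2-spaced axes, with colours for HXP, MI and control and grey lines of equal Meox1 to Tcf21 ratio. The MI points lie near or above the 2:1 line, the control points lie between about the 1:1 and 2:1 lines, and HXP 5 lies at a ratio of 11.2.

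The comparison of HXP with MI asked whether treated hearts differ from infarcted ones. No member was called by limma, nor was any of the 13710 genes (0% called). At an unadjusted p below 0.05 there were 4 of 9 members and 1891 genes, and voom on the recovered reads called 0 members and 0 genes. All 9 fitted fold changes were negative, with a median of -0.66 for the members and -0.12 for all genes. Tcf21 had the smallest adjusted p. It ranged from 0.870 to 12.3 FPKM in HXP (median 4.19) and from 4.77 to 20.9 FPKM in MI (median 11.8). Of the HXP libraries, 3 lay under all MI libraries (log2 fold change -1.28, SE 0.43, limma adjusted p = 0.266). Meox1 averaged 16.6 ± 15.9 FPKM in HXP and 25.4 ± 10.2 FPKM in MI (log2 fold change -1.03, SE 0.49, limma adjusted p = 0.361). Scx averaged 0.886 ± 0.657 FPKM in HXP and 3.04 ± 2.70 FPKM in MI (log2 fold change -0.90, SE 0.34, limma adjusted p = 0.309).

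For Tbx18, Osr1, Wt1 and Prrx1 the 2 groups had close means. Tbx18 averaged 2.03 ± 1.11 FPKM in HXP and 2.17 ± 0.621 FPKM in MI, and Osr1 4.87 ± 4.86 FPKM in HXP and 4.91 ± 1.71 FPKM in MI. Their log2 fold changes were -0.12 (SE 0.20) and -0.39 (SE 0.43), and those of Wt1 and Prrx1 -0.08 (SE 0.13) and -0.23 (SE 0.17). With these errors neither a difference nor its absence is shown. Without HXP 5 and HXP 6 the signs of Osr1 (0.18), Tbx18 (0.09) and Wt1 (0.02) turned, and Tcf21 and Meox1 stayed negative.

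The spread within HXP was wide and ran through the members together. HXP 3 was the highest of the 6 HXP libraries for 10 of 10 members, and HXP 6 the lowest for 9. HXP 2 and HXP 3 exceeded the whole control range for 10 of 10 members. HXP 1 did so for 7. HXP 4 did so for 4 (Tbx18, Meox1, Twist1 and Osr1). HXP 6 lay under the control range for 7 of 10 members and above it for none. The share of all genes outside the control range in each library was not counted, so these counts describe the members alone. In Meox1, HXP 3 had 45.9 FPKM and HXP 6 1.53 FPKM. In Osr1 HXP 3 had 11.7 FPKM and HXP 6 0.372 FPKM. Fibroblast reference genes followed the same order at the ends, with means of 7.21 in HXP 3 and 3.89 in HXP 6 on the log2 scale. Epicardial and mesothelial markers were at 3.01 in HXP 2, 2.30 in HXP 3 and 0.18 in HXP 6, and at 0.25 to 0.51 in control. Macrophage markers were at 5.54 in HXP 3 and 2.62 in HXP 6, and at 3.22 to 3.59 in control. Endothelial markers were at 4.47 in HXP 3 and 3.43 in HXP 6, and at 3.75 to 4.23 in control. Mural markers were at 4.75 in HXP 3 and 3.36 in HXP 6, and at 3.78 to 4.06 in control. HXP 6 thus lay under all controls for each of these 5 lists. The part of cell composition in the members' levels was not tested.

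**Figure D5:**
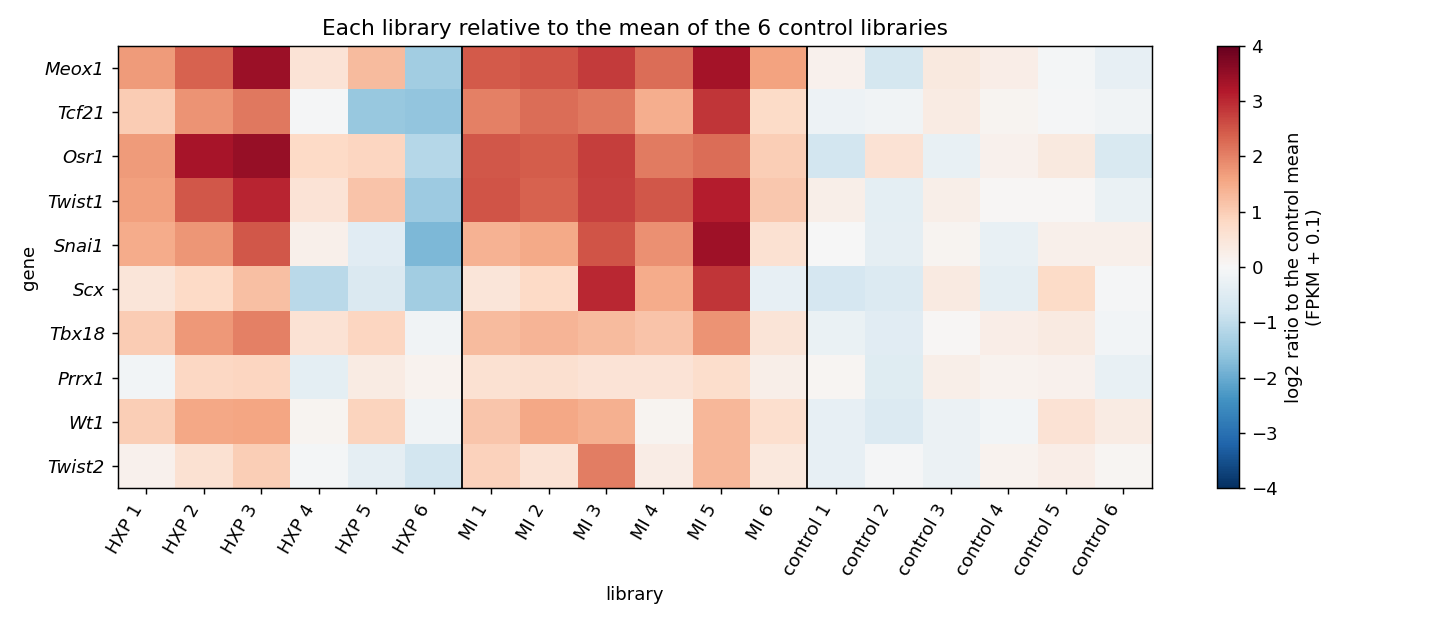
log2 ratio of each library to the mean of the 6 control libraries (colour, FPKM + 0.1) for each member (rows) in HXP, MI and control libraries (columns). HXP 2 and HXP 3 are red throughout like the MI libraries, HXP 6 is blue in 7 members under the control range, and HXP 5 is red for Meox1 and blue for Tcf21.

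HXP 5 split the members. It was above the control range for Wt1, Tbx18, Meox1, Twist1, Prrx1 and Osr1 and under it for Tcf21, Twist2 and Snai1. Its Meox1 of 10.2 FPKM with a Tcf21 of 0.911 FPKM gave a plain ratio of 11.2, where the other HXP libraries had 1.76 to 3.73. HXP 5 and HXP 6 are the libraries with low levels of genes rich in G and C. The longest transcripts of Scx (61.3% G and C), Snai1 (59.8%) and Twist1 (59.3%) are in the richest 10% of tested genes, and Osr1 has 57.0%. Meox1 (52.4%) and Tcf21 (49.9%) lie near the median of 49.8%, and Prrx1 (43.6%) is the poorest member. With the GC trend removed, HXP 6 was under the control range for 2 of 9 members (Tcf21 and Meox1) and HXP 5 for Tcf21 alone. The log2 ratio of Meox1 to Tcf21 in HXP 5 was 2.55 as measured and 2.61 with the GC trend removed.

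The comparison of HXP with control asked which genes differ between treated and control hearts, and both comparisons with control share the same 6 control libraries. No member was called by limma, where 0.314% of 13710 genes were. At an unadjusted p below 0.05 there were 5 of 9 members and 4541 genes, and voom on the recovered reads called 0 members and 14 genes. All 9 fold changes were positive, with a median of 0.53 for the members and 0.16 for all genes. No member's groups were free of overlap, which 1.13% of genes showed in the higher direction. Tbx18 came closest to the threshold. It ranged from 0.748 to 3.70 FPKM in HXP (median 1.71) and from 0.593 to 1.10 FPKM in control (median 0.824). All HXP libraries but HXP 6 were above all controls (log2 fold change 0.65, SE 0.20, limma adjusted p = 0.0881).

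Osr1 averaged 4.87 ± 4.86 FPKM in HXP and 0.951 ± 0.380 FPKM in control, a 5.12-fold ratio (log2 fold change 1.17, SE 0.43, limma adjusted p = 0.102). Meox1 averaged 16.6 ± 15.9 FPKM in HXP and 4.17 ± 1.14 FPKM in control (log2 fold change 1.26, SE 0.49, limma adjusted p = 0.11). Twist1 averaged 1.94 ± 1.70 FPKM in HXP and 0.480 ± 0.0985 FPKM in control (log2 fold change 0.79, SE 0.31, limma adjusted p = 0.112). In each of these 3 genes 5 HXP libraries were above and HXP 6 was below all controls. Wt1 (log2 fold change 0.35, SE 0.13, limma adjusted p = 0.11) had 4 HXP libraries above all controls. Tcf21 (0.37, SE 0.43), Snai1 (0.53, SE 0.39), Prrx1 (0.27, SE 0.17) and Scx (0.06, SE 0.34) had limma adjusted p between 0.254 and 0.913.

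These results turned on HXP 6. Without it 5 of 9 members were called higher in HXP than in control (4236 of 13710 genes were called), namely Meox1, Osr1, Tbx18, Twist1 and Wt1. Their limma adjusted p lay between 0.0156 and 0.0288. Without HXP 5 and HXP 6, 7 members were called (5967 genes), with Snai1 (limma adjusted p = 0.0313) and Tcf21 (0.0252) added. With all libraries and the GC trend removed, 2 were called, Twist1 (log2 fold change 0.80, limma adjusted p = 0.0270) and Tbx18 (0.47, limma adjusted p = 0.0402), where 1084 genes were. Median-ratio scaling and quantile normalization each called Tbx18 alone of the 9 members, where 1245 of 13583 and 1231 of 13710 genes were called. What sets HXP 5 and HXP 6 apart was not tested.

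Relative to the fibroblast reference genes, no member was called by limma between HXP and MI, where 0% of genes were called. An unadjusted p below 0.05 was found for 2 of 9 members and 256 genes. Neither a difference nor its absence is shown there. Against control, 5 of 9 members were lower in HXP relative to the fibroblast reference genes, where 90% of all genes were. These were Scx (log2 difference -1.16, limma adjusted p = 0.0108), Prrx1 (-0.95, limma adjusted p = 0.0147), Wt1 (-0.87, limma adjusted p = 0.0232), Tcf21 (-0.85, limma adjusted p = 0.0120) and Snai1 (-0.69, limma adjusted p = 0.0187). The Wt1 call went without HXP 2 or HXP 3 (-0.62 without HXP 3, limma adjusted p = 0.0639). All but Wt1 were also called lower with a pseudocount of 0.1, where 81.4% of genes were. As a plain share of the geometric mean of the 8 genes, Tcf21 took 2.48% to 11.4% in HXP, 11.8% to 20.3% in MI and 12.1% to 17.4% in control. All 6 HXP libraries were below all libraries of both other groups for Tcf21. How many of all genes do so on this scale was not counted. Meox1 took 11.9% to 31.6% in HXP, 30.2% to 41.7% in MI and 15.5% to 27.4% in control.

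The log2 ratio of Meox1 to Tcf21 was 1.33 ± 0.75 in HXP, where MI had 1.08 ± 0.19 and control 0.43 ± 0.27. HXP exceeded control by 0.90 (exact two-sided permutation p = 0.00866, adjusted over the 3 comparisons 0.0130). It exceeded MI by 0.25 (exact two-sided permutation p = 0.496). HXP 6, at 0.44, was the only HXP library within the control range of this ratio. Without HXP 5 the difference from control was 0.65 (exact permutation p = 0.0173) and that from MI 0.00.

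Other genes of the same families moved less uniformly in MI. Of 18 paralogs and family members, 13 were tested, 6 were called higher and 1 lower (median log2 fold change 0.31), against 40.1% higher and 3.21% lower over all genes. Prrx2, the paralog of Prrx1, averaged 1.39 ± 0.755 FPKM in MI and 0.0177 ± 0.0217 FPKM in control (log2 fold change 1.16, SE 0.25, limma adjusted p = 0.0139). Prrx2 passed the filter only through HXP and MI, so its call is a description. Snai2 averaged 4.15 ± 1.24 FPKM in MI and 1.49 ± 0.363 FPKM in control (log2 fold change 1.02, SE 0.25, limma adjusted p = 0.0146). Tbx20, a T-box factor of heart muscle and endocardium, was at 0.87 (SE 0.23, limma adjusted p = 0.0149). Msc, a bHLH gene close to Tcf21, was at 0.61 (SE 0.17, limma adjusted p = 0.0158). Snai3 was the one called lower (-0.62, SE 0.22, limma adjusted p = 0.0328). Meox2, the paralog of Meox1, stood at 8.09 ± 1.23 FPKM in MI and 7.75 ± 0.575 FPKM in control (log2 fold change 0.05, SE 0.12).

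The bHLH partners are E proteins, which pair with Tcf21, Twist and Scx, and Id proteins, which block that pairing. Of 7 such genes 2 were called higher and none lower (median 0.54), where 40.1% of all tested genes were called higher. Id2 averaged 12.5 ± 5.04 FPKM in MI and 2.86 ± 0.449 FPKM in control (log2 fold change 1.70, SE 0.45, limma adjusted p = 0.0151), and Id4 was at 0.62 (SE 0.20, limma adjusted p = 0.0246). Id4, with a control mean of 0.125 FPKM, passed the filter only through HXP and MI, so its call is a description. The E proteins Tcf3, Tcf4 and Tcf12 had log2 fold changes of 0.54, 0.30 and 0.36, with limma adjusted p of 0.122, 0.145 and 0.0589. Of 21 other regulators of fibroblast activation, 15 were tested and 9 were called higher (median 0.76), against the same 40.1% of all tested genes. They were led by the cartilage factor Sox9 (log2 fold change 2.04), with Smad7, an inhibitor of TGF-beta signalling, at 1.06, Foxs1 at 1.20 and Creb3l1 at 1.15 (limma adjusted p = 0.0139 to 0.0143). Sox9, with a control mean of 0.333 FPKM, passed the filter only through HXP and MI, so its call is a description.

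Lists of activated fibroblast genes and of tendon and cartilage genes had higher median fold changes than the 9 members (1.34). All 13 activated fibroblast genes, a list that also holds Meox1, were called higher in MI (median log2 fold change 3.83), among them Postn, which encodes periostin, at 4.20. The list also holds Acta2, the smooth muscle actin of myofibroblasts, at 1.12 and Fap, a fibroblast protease, at 0.78. Both lay under Meox1, Tcf21 and Osr1 on the log2(FPKM + 1) scale. That scale compresses changes of genes near or under 1 FPKM, so orders on it depend in part on level. All 10 tested of 12 tendon and cartilage genes were called higher (median 2.77), among them Fmod at 5.36 and Comp at 6.43. Scx, not on this list, stood at 0.96 (ratio of means 4.05). Sox9 is on that list and on the previous one. The mean of the tendon and cartilage list was 0.31 to 0.53 on the log2 scale in control. Tnmd (control mean 0.0126 FPKM) and Sox9 are among the genes that passed the filter only through HXP and MI. In both lists the call of any gene with a control mean under 0.5 FPKM is a description. Over all tested genes 40.1% were called higher in MI. Of the mural and smooth muscle markers 5 of 10 were called higher (median 0.65), of the endothelial markers 1 of 8, and of the cardiomyocyte markers 0 of 8, with 2 lower. Macrophage markers were higher for 10 of 10 (median 1.52). No gene of any list was called by limma in HXP against MI or HXP against control.

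Across the 18 libraries, after removal of group means, Meox1 and Twist1 moved most alike of the 45 member pairs (Pearson r = 0.96) and Twist2 and Prrx1 least (r = 0.34). These are descriptions over libraries that share depth and the composition of the tissue, given without a test. Prrx1 had r between 0.34 and 0.75 with the other 9, and was the least alike of the 9 for 4 of them (Tcf21, Twist2, Snai1 and Scx). By the same measure over all genes at 1 FPKM or more, the nearest to Twist1 was Dcn, which encodes the matrix protein decorin (r = 0.99), and the nearest to Meox1 was Carhsp1, followed by the matrix gene Sparc (r = 0.98 for both). The nearest were Chst12 for Tcf21 (r = 0.98), Snx18 for Tbx18 (r = 0.99), Igsf8 for Snai1 (r = 0.98), C1ra for Osr1 (r = 0.97), Eva1b for Scx (r = 0.94), Lrch1 for Wt1 (r = 0.94) and Vamp7 for Prrx1 (r = 0.91).

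The counting is not stated to use strand, so reads of overlapping genes may not be separable. Twist2 shares 46.5% of its exon bases with the antisense gene Gm29100, which was listed at no more than 0.0718 FPKM in any library. Twist2 itself averaged 0.302 FPKM in MI. Tbx18 shares 20.6% with D030062O11Rik on the other strand (at most 0.468 FPKM). Scx lies within Bop1 on the opposite strand with no shared exon base, and Bop1 averaged 6.68 FPKM in HXP, 9.03 FPKM in MI and 6.16 FPKM in control. The part of Bop1 reads in the Scx values was not tested. Twist1 and Twist2 share no stretch of 50 bases.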

How the data were processed

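RNA of mouse heart was sequenced in 18 libraries. Per the labels' protocols, ribosomal RNA was removed before library preparation. The authors deposited 1 value per gene and library, and the unit of these deposited values, FPKM, was inferred from the values: times exon length they fall on whole multiples of 1 step (98.0% to 98.5% within 0.1 read). Build GRCm38 and limma are named in the submitters' processing notes. Aligner and counter: not given in the sources used here. IDs were matched to GENCODE M21 (34097 matched, 53 not), the source of symbols, coordinates and GC content.

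Tests used log2(FPKM + 1) of 13710 genes, those whose mean reached 0.5 FPKM. A gene with a control mean under 0.5 FPKM passed only through HXP and MI, so its call against control is a description. All 18 libraries entered 1 linear model of the 3 groups (R 4.3.3, limma 3.58.1, intensity trend on, two-sided), with Benjamini-Hochberg adjustment over all genes and calls under 0.05. A p-value here measures spread between libraries, which may be in part technical. The reference fit subtracts the mean log2 of 8 fibroblast genes, and the Meox1 to Tcf21 ratio was tested by exact permutation. The fits were tested on simulated data. Floors and intervals were not needed, since every member had reads in every library.

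All 10 members are named. From each other list up to 4 genes of smallest p in MI against control could be named, and Snai3, Meox2, Tcf3, Tcf4 and Tcf12 were chosen after their values were seen. The members and lists were chosen with earlier results of these data known. Settings chosen after seeing the data were the removal of HXP 5 and HXP 6, a mean of MI 1 and MI 2, removal of the GC trend (lowess, span 0.3) and the block of 10 library numbers for the ratio. Python 3.11.15 and matplotlib 3.10.9 made the figures.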

Additional observations from a re-analysis of the deposited data

Results flagged for a closer look

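Of 75 groups of 6 libraries examined for members and marker lists, 6 had 1 library standing apart by the gap to its nearest neighbour, where chance gives about 5%. Among the members, Prrx1 in HXP 6 was 43.5% of the fibroblast reference genes, far above the other HXP libraries, and Twist2 in MI 3 was 0.931% of them, above the other MI libraries. No member stood out by FPKM alone. Among markers of other tissues, MI 5 stood apart for lung epithelial (4.98, mean log2) and lung mesenchymal markers (1.73), and MI 4 (3.19) and HXP 5 (1.38) for skeletal muscle markers.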

How the results depend on the processing

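Of the single-gene values recomputed under other settings, 938 kept their direction and side of the threshold, 69 lost their call, 21 gained one and 22 changed sign. Of the counts and ratios, 200 stayed close to the main value (counts within 1.5 times) and 9 did not. The count of members called in MI against control was 1 in the block of 10 library numbers, 0 without MI 4 and MI 5, 6 with no filter and 6 to 9 when 1 library was left out. In HXP against control the count was 1 with quantile normalization, 1 with median-ratio scaling, 2 with the GC trend removed, 5 with that and without HXP 5 and HXP 6, 7 without those libraries alone, and 0 to 5 when 1 library was left out. Relative to fibroblast genes, MI against control gave 3 to 5, with 3 without control 2.

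Several signs near 0 turned in HXP against MI. In the block of 10 libraries Osr1 was 0.0048, Prrx1 0.061, Tbx18 0.14 and Wt1 0.11. With the block of library numbers as covariate Tbx18 was 0.035 and Wt1 0.054. With quantile normalization Tbx18 was 0.035 and Wt1 0.048. Without HXP 5 and HXP 6 Osr1 was 0.18, Tbx18 0.092 and Wt1 0.020, and with the GC trend removed too 0.25, 0.084 and 0.045. The GC trend alone gave Wt1 0.083. With 1 library left out Tbx18 ran from -0.26 to 0.022. Scx in HXP against control was -0.065 with median-ratio scaling, -0.15 with quantile normalization, -0.048 with voom and -0.076 to 0.17 with 1 library left out. In MI against control, Twist1 relative to fibroblast genes was -0.23 in the main fit and 0.66 with a pseudocount of 0.1. The cause was not tested.

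The replicate numbers do not pair the libraries, with 5 of 18 same-number pairs correlated over 0.1. A replicate block gave 9, 0 and 0 members called in MI against control, HXP against MI and HXP against control, and 5, 0 and 5 relative to fibroblast genes. The Meox1 to Tcf21 ratio had block p of 0.0312, 0.562 and 0.0312 in that order (exact sign permutations). Twist2 rested on the fewest reads (4 in HXP 6). Twist1 (14 reads), Snai1 (26) and Scx (35) also had few reads in HXP 6.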
